A study of Mus musculus with 8 samples.

Results

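Keratin genes were followed in cells sorted from Eml4-Alk mouse lungs by the activation of a protease probe. The 54 keratins were the rows of the count table whose gene symbol is Krt, a number and at most 1 letter, out of 27179 rows in all. They comprise 28 type I and 26 type II genes, and every one is counted here, including those with no reads. The 8 libraries were 4 of QZ1-hi cells and 4 of QZ1-lo cells from C57BL/6 mice (C57BL/6J in the study's methods), aged 18 to 22 weeks and 11 to 12 weeks after tumor induction. In both groups the Eml4-Alk fusion had been made in infected lung cells by adenoviral delivery of Cas9 with guides to both loci, so tumor cells and the tissue around them entered the suspension. QZ1-lo is the comparator, and healthy mice were not analysed here. Each animal received 4.5 nmol of QZ1-(PEG2K) intravenously, a peptide probe that becomes fluorescent when proteases cut it, and 2 h later the lungs were dissociated. Viable cells lacking the leukocyte proteins CD45 and CD11b were sorted as QZ1-hi or QZ1-lo, with QZ1 gated against EpCAM, at 100000 cells or more per population. Purity after the sort was not measured, and no source says whether the 4 libraries of a group came from separate mice, so p-values measure the spread between libraries, which may in part be technical.

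Keratins are the intermediate filament proteins of epithelial cells. They assemble only as pairs of 1 type I and 1 type II protein, and the filaments are anchored to neighbouring cells at desmosomes and to the basement membrane at hemidesmosomes. Single-layered epithelia such as those of the lung mainly make Krt8 and Krt18 with Krt7 and Krt19, whereas Krt5 and Krt14 mark basal cells of the airway and other keratins belong to skin, mucosa or hair. In the lung, a high level of Krt8 is also known from alveolar cells that are between the type 2 and type 1 states after injury. Type I keratins lie on mouse chromosome 11 and type II keratins on chromosome 15, with 27 genes on each, because Krt18, a type I gene, sits on chromosome 15 beside Krt8.

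The DNA upstream is shown for the simple epithelial keratins Krt7, Krt8 and Krt18, which were called lower in QZ1-hi libraries, and for Krt20, of the same family group. Krt20 was not called, but with 2 to 54 counts per library (SE 0.91) a change as large as theirs could have gone uncalled. A link between these bases and the calls was not tested. RefSeq promoter windows of GRCm38.p6, 250 bases before the annotated start, were found for 36 of the 54 keratins (37 windows). Krt19 and Krt80 were not among them. The windows printed here run 5′ to 3′ on the gene's strand, with TATA boxes (TATAAA) and GC boxes (GGGCGG) on either strand in capitals and with bases that GENCODE places in an exon of a protein-coding transcript left off the end, which removed 1 base for Krt7, 140 for Krt8, 36 for Krt18 and 0 for Krt20. They are chr15:101412153-101412401 (plus strand, Krt7), chr15:102004483-102004592 (minus strand, Krt8), chr15:102027966-102028179 (plus strand, Krt18) and chr11:99438154-99438403 (minus strand, Krt20).
Krt7: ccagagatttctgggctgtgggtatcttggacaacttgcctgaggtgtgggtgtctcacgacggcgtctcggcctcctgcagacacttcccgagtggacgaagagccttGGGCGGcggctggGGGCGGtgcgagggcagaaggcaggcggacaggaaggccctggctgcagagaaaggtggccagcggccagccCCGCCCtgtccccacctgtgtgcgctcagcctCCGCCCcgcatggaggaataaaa
Krt8: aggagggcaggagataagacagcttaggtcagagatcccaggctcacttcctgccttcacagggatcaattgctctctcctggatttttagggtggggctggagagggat
Krt18: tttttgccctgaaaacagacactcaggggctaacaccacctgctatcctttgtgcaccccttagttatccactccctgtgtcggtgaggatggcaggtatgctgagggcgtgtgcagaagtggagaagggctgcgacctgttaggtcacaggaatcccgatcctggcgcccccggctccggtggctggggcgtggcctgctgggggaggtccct
Krt20: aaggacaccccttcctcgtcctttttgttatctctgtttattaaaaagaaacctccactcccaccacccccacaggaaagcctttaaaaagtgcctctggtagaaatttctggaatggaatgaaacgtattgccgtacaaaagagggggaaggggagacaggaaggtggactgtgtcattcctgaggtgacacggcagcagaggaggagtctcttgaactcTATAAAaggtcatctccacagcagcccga
In the full 250 bases, no TATAAA was found for Krt7, Krt8 or Krt18, and Krt20 had 1, which began 29 bases before the start. Krt7 held 4 GC boxes and the other 3 held none. Across the family, TATAAA was present in 17 of 37 keratin windows (45.9%), against 12.4% of the 32851 promoter windows in the table, and the keratins of hair and its sheath held most of these matches, with 7 of 8 windows of inner root sheath genes and 6 of 9 of hair shaft and nail genes. Of the keratins with a window, 2 of 8 that passed the count filter, 9 of 17 windows of those counted but not tested and 6 of 12 of those without a read held TATAAA. GC boxes were present in 2 of 37 keratin windows (5.41%) and in 32.7% of all. The CCAAT box (CCAAT) was in 40.5% and 33.9%, the AP-1 site (TGANTCA) in 5.41% and 6.75%, the E-box (CANNTG) in 78.4% and 66.2%, and a grainyhead-like site (AACCNGTT) in 0 of 37 and 1.79%. Some windows lie within the span that GENCODE gives the gene, such as those of Krt7 and Krt14 and the inner window of Krt13, and were counted like the rest. These are matches of letters on either strand and not sites. The patterns can share letters (a CCAAT box with a TATA box, an E-box with an AP-1 site), and each was counted on its own.

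Total counts ran from 18380918 to 26847938 per library and did not differ between the groups (exact permutation test, two-sided p = 0.943, where 4 against 4 allows no p under 0.0286). Mitochondrial ribosomal RNA took 50.1% ± 8.76 (SD, n = 4) of the counts in QZ1-hi and 37.3% ± 7.50 (n = 4) in QZ1-lo, a difference with p = 0.0857 by the same exact test. Levels are given in CPM, the usual depth-scaled counts, with library sizes adjusted by edgeR's TMM factors (0.660 to 1.35), and 3 counts, the floor used here, correspond to 0.0894 to 0.179 CPM, which covers counting error only. The groups did not separate epithelial from other cells cleanly. Epithelial markers were present in both, and endothelial (4 of 4), fibroblast (4 of 4) and mesothelial (6 of 6) markers were all called higher in QZ1-hi (9.88% of all genes tested), whereas Epcam and Cdh1 were called lower (8.21%). In RNA from sorted pools, fewer cells of a type and less RNA per cell cannot be told apart, and the QZ1 signal was gated against EpCAM in the sort.

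The 4 simple epithelial keratins Krt7, Krt8, Krt18 and Krt19 fell in QZ1-hi, each to less than its lowest QZ1-lo value in every library. Krt8, the type II partner of Krt18, stood at 162.7, 143.3, 129.2 and 104.9 CPM in QZ1-hi replicates 1 to 4 and at 407.5, 346.1, 431.8 and 342.7 CPM in QZ1-lo replicates 1 to 4. This gave 135.0 ± 24.3 CPM (mean and SD, n = 4) for QZ1-hi and 382.1 ± 44.6 CPM for QZ1-lo. The log2 fold change, QZ1-hi relative to QZ1-lo, was -1.50 (SE 0.15, adjusted p = 0.000263, edgeR quasi-likelihood test with Benjamini-Hochberg adjustment over 15583 genes), a level 2.83-fold higher in QZ1-lo. The highest QZ1-hi library was thus well under the lowest QZ1-lo library. About 29.7% of the 50-base stretches in Krt8 exons also occur elsewhere, mainly in the pseudogene Krt8-ps, so its counts are less certain than those of Krt7 and Krt18, where this share was 0.916% and 0.720%.

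Krt18, the type I partner of Krt8, read 174.4, 164.8, 136.7 and 100.2 CPM in QZ1-hi and 416.8, 356.0, 508.0 and 290.7 CPM in QZ1-lo (log2 fold change -1.45, SE 0.21, adjusted p = 0.000853). Krt7, a type II keratin of glandular and lung epithelium, read 195.1, 184.3, 151.1 and 133.1 CPM against 472.3, 404.9, 532.0 and 388.2 CPM (-1.44, SE 0.16, adjusted p = 0.000278). Replicate 3 was the highest QZ1-lo library for each of Krt7, Krt8 and Krt18, and replicate 4 was the lowest library of both groups, though replicate numbers pair no libraries. Krt19, a type I keratin without the usual tail domain, read 116.9, 185.3, 97.42 and 95.70 CPM in QZ1-hi and 286.1, 316.1, 334.9 and 249.8 CPM in QZ1-lo (-1.26, SE 0.21, adjusted p = 0.00173). QZ1-hi replicate 2 stood highest of its group for Krt19, unlike for the other 3 keratins, and without it the log2 fold change was -1.51. In that library the 6 mesothelial markers summed to 305.0 CPM, against 65.85, 44.81 and 79.38 CPM in QZ1-hi replicates 1, 3 and 4 and 6.057 to 39.34 CPM in QZ1-lo. Mesothelial cells are known to make simple keratins too. The club and ciliated cell markers were also each highest of their group in QZ1-hi replicate 2. Scgb1a1 of club cells was at 796.3 CPM there, against 268.2, 296.0 and 301.2 CPM in QZ1-hi replicates 1, 3 and 4. Dnah5 of ciliated cells was at 58.88 CPM, against 13.6, 28.5 and 41.24 CPM. Epcam and Sftpc were highest in QZ1-hi replicate 1. The part of any of these cells in the Krt19 level was not tested. All 6 mesothelial markers had counts in each QZ1-hi library, and Bnc1 was at 0 in QZ1-lo replicates 3 and 4.

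**Figure D1:**
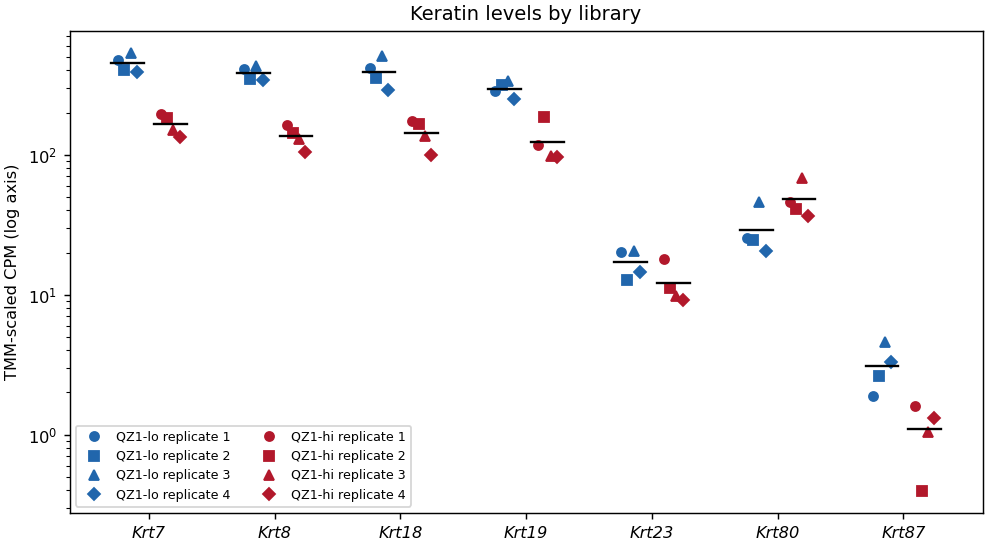
Level of 7 keratin genes in every library, in TMM-scaled CPM on a log axis, with QZ1-lo in blue, QZ1-hi in red, 1 symbol per replicate number and a black line at the mean of 4 libraries. Krt7, Krt8, Krt18, Krt19 and Krt87 do not overlap between the groups, and Krt23 and Krt80 do.

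The fall of these 4 genes was the only change called among keratins. Of 54 keratins, 13 passed the count filter, and 4 of them were called lower and 0 higher in QZ1-hi by edgeR, where 8.21% of all genes tested were called lower and 9.88% higher. At an unadjusted p under 0.05, 5 keratins were lower and 1 higher, against 2106 lower and 2403 higher of all 15583 genes tested. DESeq2 called 5 keratins lower and 1 higher, against 1606 and 1812 of all genes. The limma-voom fit called 4 keratins lower and 0 higher, against 1276 and 1618 of all genes. Of the 13 keratins tested, 5 had every QZ1-lo library above every QZ1-hi library (10.7% of all genes tested), and 0 had the opposite order (11.9%). The median log2 fold change of the 13 was -0.50, against 0.02 for all genes tested. Scaling by library size alone moved the median of all genes to -0.44, and relative to that median the changes were -1.50 for Krt8, -1.45 for Krt18, -1.45 for Krt7, -1.30 for Krt19 and 0.72 for Krt80.

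**Figure D2:**
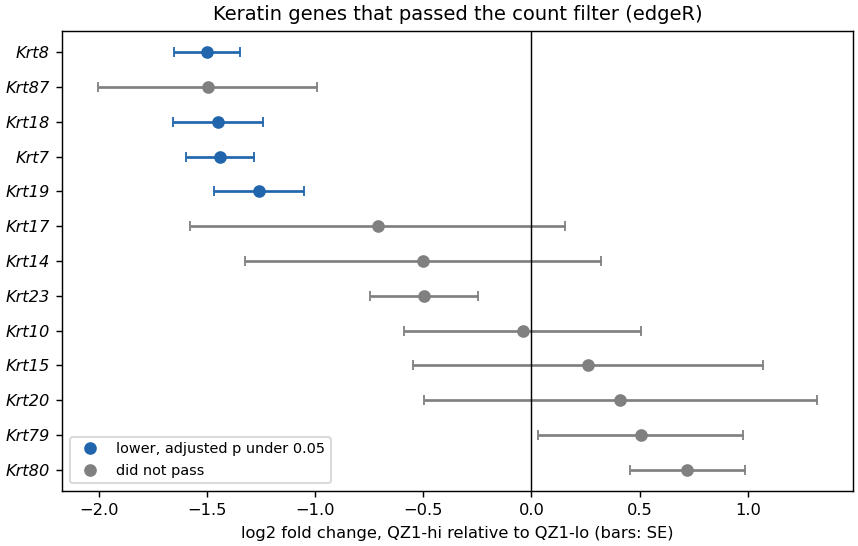
Log2 fold change of the 13 keratins tested, QZ1-hi relative to QZ1-lo, with bars of 1 SE from edgeR and a vertical line at 0. The 4 called genes (blue) lie between -1.50 and -1.26, and Krt87 reaches -1.50 with a wider bar (SE 0.50) and is not called.

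Summed over the family, keratin transcripts amounted to 721.5, 743.5, 603.1 and 488.6 CPM in QZ1-hi and 1641, 1474, 1892 and 1318 CPM in QZ1-lo, 2.47-fold more in QZ1-lo. The total was carried by few genes. Krt7, Krt8, Krt18 and Krt19 took 85.3% to 91.2% of all keratin counts in QZ1-hi and 95.5% to 96.5% in QZ1-lo. The proportions among these 4 overlapped between the groups. Krt8 had 0.870 to 1.05 counts per Krt18 count in QZ1-hi and 0.850 to 1.18 in QZ1-lo, and Krt7 had 1.17 to 1.29 and 1.13 to 1.23 counts per Krt8 count. Type I genes took 41.1% to 49.7% of keratin counts in QZ1-hi and 42.4% to 47.0% in QZ1-lo. These sums, shares and ratios are descriptions and were not tested.

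Compared between genes per kilobase, the order of the 4 depended on the length used. Per kilobase of the longest mRNA, the mean level in QZ1-lo was 273.4 CPM for Krt18, 195.1 for Krt8, 188.3 for Krt19 and 109.8 for Krt7. Per kilobase of coding sequence it was 327.8 CPM for Krt7, 309.6 for Krt18, 259.9 for Krt8 and 245.4 for Krt19, because the Krt7 mRNA of 4094 bases holds only 1371 coding bases. On either scale these 4 stood above the next keratins, Krt80 (9.48 CPM per kilobase of mRNA and 21.4 per kilobase of coding sequence in QZ1-lo) and Krt23 (10.9 and 13.4). In QZ1-hi the levels per kilobase of mRNA were 100.2 CPM for Krt18, 78.6 for Krt19, 69.0 for Krt8, 40.5 for Krt7, 15.6 for Krt80 and 7.70 for Krt23.

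Krt80 and Krt23, an epithelial type II and type I keratin, were not called in either direction. Krt80 read 46.19, 40.80, 68.51 and 36.29 CPM in QZ1-hi and 25.52, 24.53, 45.70 and 20.50 CPM in QZ1-lo, and 1 QZ1-lo library, replicate 3, lay within the QZ1-hi range. The Krt80 change of 0.72 on the log2 scale (SE 0.26, adjusted p = 0.0870) did not pass the test, but DESeq2 gave 0.72 with an adjusted p of 0.0475, and without QZ1-lo replicate 3 edgeR gave 1.03 with an adjusted p of 0.00886. Across all settings tried the adjusted p ran from 0.00886 to 0.539. Relative to other keratins the groups separated. Keratin counts came mostly from Krt7, Krt8, Krt18 and Krt19, which fell in QZ1-hi, so a gene that fell less rises on these scales. Krt80 took 5.49% to 11.4% of keratin counts in QZ1-hi and 1.56% to 2.42% in QZ1-lo, and had 0.284 to 0.530 counts per Krt8 count in QZ1-hi against 0.0598 to 0.106 in QZ1-lo. An antisense gene, Gm35853, overlaps 4.11% of the Krt80 exonic length. Antisense genes also overlap 5.16% of that of Krt8 (Gm36026) and 1.09% of that of Krt7 (Gm671), and none overlaps Krt18 or Krt19. The kit keeps strand but the strand setting of the counting is not given in the sources used here. Reads of each such pair thus cannot be told apart.

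Krt80 was also set beside endothelial markers. The summed level of the 4 endothelial markers was 942.6, 555.2, 1330 and 529.5 CPM in QZ1-hi and 47.79, 61.88, 165.0 and 30.53 CPM in QZ1-lo, with none of them at 0 in any library. Replicate numbers pair no libraries between the groups, so each group is ranked on its own. Replicate 3 was the highest and replicate 4 the lowest library of each group for both Krt80 and this sum. This order was not particular to endothelial markers. Col1a1 and Col1a2 of the fibroblast list and Pdgfrb and Notch3 of the pericyte list had it too, and the other genes of those lists did not. The part of any of these cell types in the Krt80 level was not tested. Krt23 read 18.05, 11.21, 9.771 and 9.177 CPM in QZ1-hi and 20.27, 12.81, 20.48 and 14.45 CPM in QZ1-lo. The groups overlapped and the log2 fold change of -0.49 (SE 0.25) did not pass (adjusted p = 0.222), although without QZ1-hi replicate 1 it was -0.76 with an adjusted p of 0.0432. Krt23 had 0.0757 to 0.111 counts per Krt8 count in QZ1-hi and 0.0370 to 0.0498 in QZ1-lo. The groups did not overlap on this scale, which divides by a gene that fell more than Krt23 did.

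The other keratins had far fewer counts. The 3 basal keratins together had 110 counts in the 4 QZ1-hi libraries and 188 in the 4 QZ1-lo libraries, against 45303 and 169147 for the 5 simple epithelial keratins. Krt5 had 0 counts in each QZ1-hi library and 6, 0, 0 and 0 in QZ1-lo, at a floor of 3 counts. Krt14, its type I partner, had 9, 45, 4 and 9 counts in QZ1-hi and 15, 54, 44 and 14 in QZ1-lo (log2 fold change -0.50, SE 0.82, adjusted p = 0.756). Without QZ1-hi replicate 2 its log2 fold change was -1.63, with an adjusted p of 0.233. Krt15, also of basal cells, had 6, 10, 12 and 15 against 18, 2, 28 and 7 counts (0.26, SE 0.81, adjusted p = 0.877). Neither Krt14 nor Krt15 was called, and their groups overlapped.

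Among the injury keratins, Krt17, which rises in wounded skin, had 14, 13, 4 and 1 counts in QZ1-hi and 16, 37, 8 and 7 in QZ1-lo (-0.71, SE 0.87, adjusted p = 0.662). Krt6a, Krt6b and Krt16 had at most 9 counts in any library and share much of their sequence with other genes. Krt20, the fifth simple epithelial keratin and one of the gut and urothelium, had 13, 54, 15 and 2 counts in QZ1-hi and 12, 48, 15 and 8 in QZ1-lo (0.41, SE 0.91, adjusted p = 0.824). Krt20 was not called and its groups overlapped. Without QZ1-hi replicate 2 its log2 fold change was -0.60, so its direction rested on that library. Krt79, of the hair follicle opening (0.51, SE 0.47, adjusted p = 0.548), and Krt10, of suprabasal skin cells (-0.04, SE 0.55, adjusted p = 0.977), did not pass either.

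The skin, mucosal, hair and nail keratins gave few counts. Of 11 suprabasal, mucosal and corneal keratins, 3 had no count in any library and 1 passed the filter. Of 9 inner root sheath keratins, 3 had no count and 0 passed, and of 15 hair shaft and nail keratins, 9 had no count and 1 passed. The one that passed, Krt87, read 1.610, 0.3951, 1.041 and 1.311 CPM in QZ1-hi and 1.878, 2.604, 4.559 and 3.315 CPM in QZ1-lo. All QZ1-lo libraries lay above all QZ1-hi libraries, but the log2 fold change of -1.50 (SE 0.50) did not pass in edgeR (adjusted p = 0.0644). It passed in DESeq2 (adjusted p = 0.0164) and with scaling by library size only (0.0187). Of its 50-base stretches, 36.9% also occur in Gm49425 or other genes, so this gene's counts are uncertain.

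Of the 41 keratins that did not pass the filter, 15 had no count in any library and 26 had at least 1. Among those 26, only Krt13, a mucosal keratin, had every QZ1-lo library above every QZ1-hi library (0.949% of all genes counted but not tested). Its counts were 0, 0, 1 and 0 in QZ1-hi and 5, 4, 5 and 13 in QZ1-lo, and in a fit without the filter it did not pass (adjusted p = 0.192). None of the 26 had the opposite order (1.86% of the same genes). Krt4, the type II partner of Krt13, had 0, 8, 6 and 1 counts in QZ1-hi and 3, 1, 65 and 22 in QZ1-lo, and the 65 were the largest count of any keratin outside the filter. QZ1-lo replicate 3 also held 45 counts of Krt9, of palm and sole skin, and 26 of Krt88, where no other library had more than 9 and 10.

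The 4 simple keratins were then set against epithelial markers within each library. Epcam, the epithelial adhesion protein against which QZ1 was gated, averaged 58.72 ± 16.3 CPM in QZ1-hi and 132.4 ± 17.4 CPM in QZ1-lo (SD, n = 4 each). It fell by 1.17 on the log2 scale (SE 0.19, adjusted p = 0.00158), and Cdh1, which encodes E-cadherin, fell by 1.34 (SE 0.18, adjusted p = 0.000609). Krt8 had 2.10, 2.13, 2.86 and 2.33 counts per Epcam count in QZ1-hi and 2.91, 2.84, 2.82 and 2.99 in QZ1-lo. The groups met at QZ1-hi replicate 3. Krt7 (2.52 to 3.35 and 3.32 to 3.48), Krt18 (2.22 to 3.03 and 2.54 to 3.32) and Krt19 (1.51 to 2.76 and 2.04 to 2.59) also overlapped between the groups when taken per Epcam count, as did Krt8 per Cdh1 count (0.607 to 0.776 and 0.648 to 0.791). Krt80 did not overlap, with 0.597 to 1.52 counts per Epcam count in QZ1-hi and 0.179 to 0.299 in QZ1-lo.

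**Figure D3:**
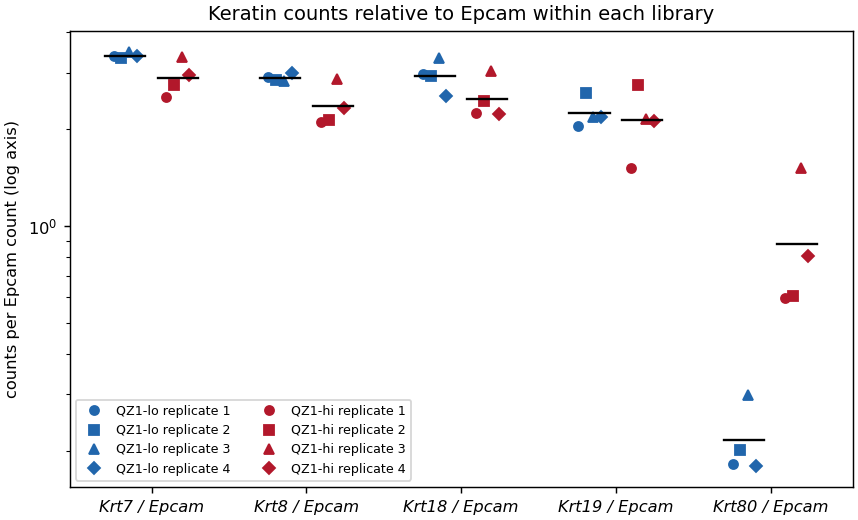
Counts of 5 keratins per Epcam count in each library, on a log axis, with QZ1-lo in blue, QZ1-hi in red and a black line at the mean of 4 libraries. Krt7, Krt8, Krt18 and Krt19 overlap between the groups on this scale, and Krt80 lies higher in the 4 QZ1-hi libraries (0.597 to 1.52) than in the 4 QZ1-lo libraries (0.179 to 0.299).

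Set against the alveolar markers Sftpc and Ager, Krt8 did not overlap between the groups. It did not overlap on its own either, and Sftpc had a higher mean in QZ1-hi, so the ratio to Sftpc adds little to that separation. Sftpc, the surfactant protein of alveolar type 2 cells, averaged 4064 ± 1124 CPM in QZ1-hi and 2371 ± 442.9 CPM in QZ1-lo (SD, n = 4 each), and Krt8 had 0.0290 to 0.0380 counts per Sftpc count in QZ1-hi against 0.145 to 0.183 in QZ1-lo. Sftpc was called higher in QZ1-hi (log2 fold change 0.78, SE 0.21, adjusted p = 0.0231), but not with scaling by library size only (0.37, adjusted p = 0.371) or without QZ1-hi replicate 1 or QZ1-lo replicate 1, 2 or 4 (adjusted p from 0.0502 to 0.0675). Of 7 type 2 markers, 2 were higher and 0 lower (9.88% and 8.21% of all genes tested), with a median log2 fold change of 0.39. All 5 type 1 markers were lower, with a median of -0.98, and their summed level ran from 536.3 to 860.3 CPM in QZ1-hi and from 1159 to 1412 CPM in QZ1-lo. Krt8 had 0.465 to 0.626 counts per count of Ager, a type 1 marker, in QZ1-hi and 0.796 to 0.956 in QZ1-lo, so Krt8 was lower relative to Ager as well. The 3 club cell and 4 ciliated cell markers were all called lower too (8.21% of all genes tested), with medians of -2.35 and -2.06. Which of these cells held the keratin transcripts was not tested.

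Most genes tested for the desmosome and linker proteins that hold keratin filaments fell in QZ1-hi, as the simple keratins did, whereas hemidesmosome genes were mixed. Of 16 desmosome and linker genes, 11 passed the filter, 8 were called lower and 0 higher (8.21% and 9.88% of all genes tested), with a median log2 fold change of -1.13 against 0.02 for all genes tested. The called genes ran from Eppk1, which encodes the linker epiplakin (-1.87, SE 0.18, adjusted p = 0.000256), to Perp (-0.63, SE 0.19, adjusted p = 0.0433). Perp lost its call without any 1 of QZ1-hi replicates 1, 2 and 3 and QZ1-lo replicates 1, 2 and 4 (adjusted p from 0.0646 to 0.116). Dsp, the desmoplakin that ties keratins to the desmosome, was 93.55 ± 25.0 CPM in QZ1-hi and 239.9 ± 13.8 CPM in QZ1-lo (SD, n = 4 each), and Krt8 had 1.20 to 1.98 and 1.40 to 1.86 counts per Dsp count, so the groups overlapped. Jup, a plaque protein shared with adherens junctions, had a log2 fold change of 0.35 (adjusted p = 0.278). Of the 6 hemidesmosome genes, 1 was higher and 1 lower (9.88% and 8.21% of all genes tested) and 4 did not pass. Their median log2 fold change was 0.07. The higher gene was Dst (1.05, adjusted p = 0.000799), at 0.57 with an adjusted p of 0.0974 when scaled by library size only. The lower gene was Itgb4 (-1.22, adjusted p = 0.00134), and Plec, which did not pass, was at 0.03 (SE 0.12).

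Of the intermediate filaments that are not keratins, more were higher than lower in QZ1-hi. Of 15 such genes, 8 were tested, 4 were higher and 1 lower (9.88% and 8.21% of all genes tested), with a median log2 fold change of 0.85. Vim, the vimentin of mesenchymal and endothelial cells, read 655.8, 691.5, 732.5 and 748.7 CPM in QZ1-hi and 305.6, 326.7, 221.3 and 383.9 CPM in QZ1-lo (log2 fold change 1.19, SE 0.16, adjusted p = 0.000629). The groups did not overlap, and Krt8 had 0.140 to 0.248 counts per Vim count in QZ1-hi and 0.893 to 1.95 in QZ1-lo. As Krt8 and Vim each separated the groups in opposite directions, this ratio could not overlap. Nes, which encodes nestin, had the largest rise of the list (2.87, SE 0.37, adjusted p = 0.000552), and the lamin gene Lmnb1 was the one that fell (-0.61, SE 0.15, adjusted p = 0.0164). Lmna, the most abundant of those not called, had a log2 fold change of -0.05 (SE 0.11). The endothelial sums given above moved in the direction of Vim and Nes, as did the 4 fibroblast markers, which summed to 898.5 to 1773 CPM in QZ1-hi and 26.23 to 216.0 CPM in QZ1-lo with none at 0, and the part of either list was not tested.

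Most of the genes often described together with Krt8 in transitional alveolar cells were also lower in QZ1-hi. Of 8 tested, 6 were lower and 0 higher (8.21% and 9.88% of all genes tested), with a median log2 fold change of -1.23. Cldn4, a tight junction claudin, was 36.67 ± 15.9 CPM in QZ1-hi and 182.5 ± 36.1 CPM in QZ1-lo (SD, n = 4 each; -2.31, SE 0.28, adjusted p = 0.000416). The smallest called change was that of Hbegf, an EGF receptor ligand (-0.54, adjusted p = 0.0321), which was not called without QZ1-hi replicate 2, 3 or 4 or QZ1-lo replicate 1, 2 or 3 (adjusted p from 0.0524 to 0.0930). Lgals3, the galectin with the highest level among those not called, was at -0.35 (adjusted p = 0.386). Of 10 cornified envelope genes, which serve the keratinizing epithelia, 3 were tested, 2 were lower and 0 higher (8.21% and 9.88% of all genes tested). Sprr1a, an envelope precursor, fell by 1.94 (SE 0.28, adjusted p = 0.000853). Tgm1, the transglutaminase that crosslinks the envelope, fell by 1.43 (adjusted p = 0.0228), a call lost without QZ1-hi replicate 2, 3 or 4 or QZ1-lo replicate 1 (adjusted p from 0.0529 to 0.0646). Ivl had a log2 fold change of 0.66 (adjusted p = 0.0830), and without QZ1-hi replicate 3 it was 0.78 with an adjusted p of 0.0329.

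**Figure D4:**
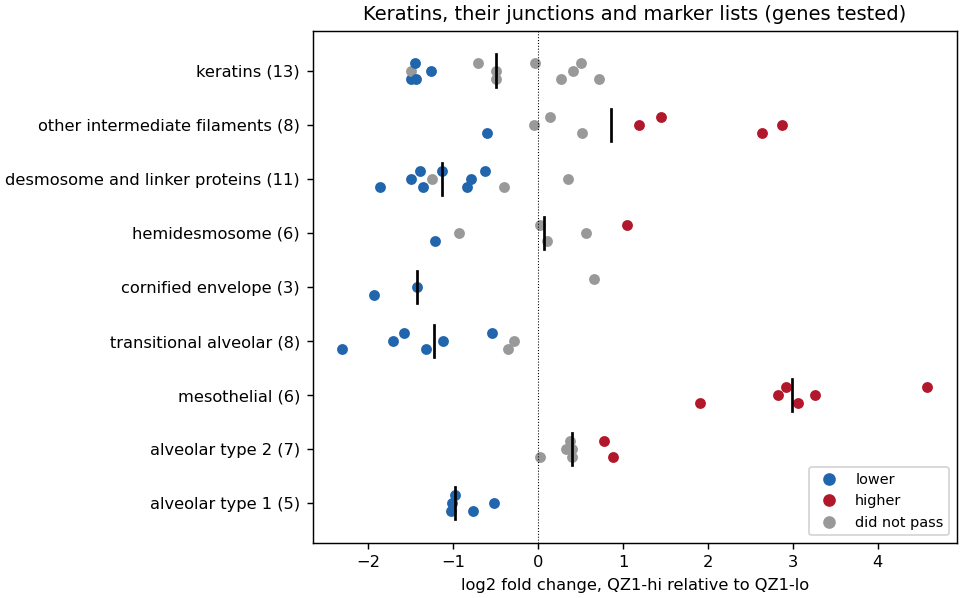
Log2 fold change, QZ1-hi relative to QZ1-lo, of each gene tested in the keratin family and in 8 lists, 1 point per gene, blue for called lower, red for called higher and grey for those that did not pass, with a black bar at each list's median and the number of genes in brackets. Desmosome genes (median -1.13) and transitional alveolar genes (-1.23) lie on the side of the 4 called keratins, and other intermediate filaments (0.85) lie on the other side.

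The airway basal list, which includes 3 keratins, did not separate the groups. Its 5 genes summed to 1.45 to 7.66 CPM in QZ1-hi and 1.43 to 5.66 CPM in QZ1-lo, and 0 of the 3 tested were called. Leukocyte markers, whose cells the gate was set to remove, were present at 167.1 to 360.8 CPM in QZ1-hi and 164.4 to 268.4 CPM in QZ1-lo, with 0 of 5 called. The erythroid list (0 of 3 called) and the neuroendocrine list (0 of 3 tested called) did not pass either, and 1 of 4 pericyte markers was higher in QZ1-hi. Of all genes tested, 18.1% were called in either direction and 9.88% were called higher.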

How the data were processed

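RNA-seq was performed on 8 sorted lung samples, and the values deposited by the authors are raw, unnormalized counts of reads over 27179 Entrez Gene identifiers, obtained with Rsubread. The submitters' processing notes name mm10 and DESeq2. The aligner, annotation and strand setting are not given in the sources used here. Symbols were assigned to 25293 identifiers from RefSeq and GENCODE M21 tables, and 1886 had none. Counts were scaled by TMM in edgeR 4.0.16 (R 4.3.3), filtered with filterByExpr (minimum count 10, minimum total 15) and compared by the quasi-likelihood test over 15583 genes, with a threshold of 0.05 after Benjamini-Hochberg adjustment. Standard errors were taken as |log2 fold change|/√F. The fit was checked on simulated counts of 15583 genes. Of these, 86 were set to change by 1 on the log2 scale and 114 by 2. There edgeR called 36.0% of genes set to change by 1 on the log2 scale and 76.3% of those set to change by 2, with 3 false calls. DESeq2 called 62.8% and 84.2%, with 35 false calls. No difference in RNA composition between the groups was simulated, and fewer genes changed than the 2820 called in the data. The rates need not hold for the real libraries. Alternatives were DESeq2 1.42.0, limma-voom (limma 3.58.1), DESeq2 size factors, scaling by library size only, no filter, at least 10 counts in every library, removal of 48 mitochondrial and ribosomal RNA genes, robust shrinkage and leaving out each library. Shared sequence is the share of exonic 50-base stretches found in another GENCODE gene. The keratins, the gene lists and the rule for naming genes (every keratin, and of each list the most and least changed genes called, the most abundant gene not called and markers set beside a keratin) were chosen with earlier results of these data known. Replicate numbers follow accession order and pair no libraries.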

Additional observations from a re-analysis of the deposited data

Results flagged for a closer look

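In 138 groups of 4 libraries, 1 value stood farther from the other 3 than Dixon's 95% critical value allows in 10 cases, and chance gives about 1 in 20 groups. Krt14 was 2.223 CPM in QZ1-hi replicate 2 and 0.2313 to 0.5363 CPM in the other 3. Krt17 was 1.505 CPM in QZ1-lo replicate 2 and 0.2865 to 0.4770 CPM in the others, and Krt20 was 1.953 CPM in the same library and 0.3274 to 0.5428 CPM in the others. QZ1-lo replicate 3 had the lowest share of keratin counts in Krt7, Krt8, Krt18 and Krt19 (95.51%, against 96.43% to 96.52%) and the highest share in Krt80 (2.416%, against 1.555% to 1.664%). Krt8 had 0.776 counts per Cdh1 count in QZ1-hi replicate 3 and 0.6067 to 0.6279 in the others. Eppk1 was 132.6 CPM in QZ1-hi replicate 2 (others 83.72 to 88.79), Plec 852.3 CPM in QZ1-lo replicate 1 (others 680.3 to 706.4) and Tgm1 74.71 CPM in QZ1-lo replicate 1 (others 26.61 to 34.78). The mesothelial markers summed to 305.0 CPM in QZ1-hi replicate 2 and to 44.81 to 79.38 CPM in the others.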

How the results depend on the processing

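Krt7, Krt8, Krt18 and Krt19 stayed lower in QZ1-hi and past the threshold in all 16 alternatives, with log2 fold changes from -1.94 to -1.37 for Krt8, -1.89 to -1.32 for Krt7, -1.89 to -1.28 for Krt18 and -1.74 to -1.12 for Krt19. With library size only, 882 genes were higher and 2509 lower in QZ1-hi, and the log2 ratio of the summed keratin level was -1.76 in place of -1.31. With 1 library left out, 1139 to 1492 genes were higher and 940 to 1158 lower, 4 to 5 keratins were lower and 0 to 1 higher, and in the lists of other filament, junction, envelope and transitional genes 5 to 6 were higher and 14 to 17 lower. The 1 keratin higher was Krt80, without QZ1-lo replicate 3 and with DESeq2 (1). Direction changed in genes that were not called. With library size only, Krt15 was at -0.354, Krt79 at -0.0631, Jup at -0.0746, Plec at -0.426 and Sftpb at -0.0186 (log2). With 1 library left out, Krt10 ran from -0.227 to 0.218 (above 0 without QZ1-hi or QZ1-lo replicate 4), Krt15 from -0.0809 (without QZ1-lo replicate 2) to 0.906, Krt17 from -1.05 to 0.133 (without QZ1-lo replicate 2), Krt20 from -0.598 (without QZ1-hi replicate 2) to 1.35, Lmna from -0.0918 to 0.0194 (without QZ1-lo replicate 3), and Plec from -0.0291 to 0.105 (under 0 without QZ1-hi replicate 1 or 3 or QZ1-lo replicate 4). The cause was not tested. No paired analysis was possible because no source ties the libraries of one group to those of the other. Of the 41 keratins outside the filter, 15 had no count and the others had at most 65 in any library, so few reads stand behind their values.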
